A study of Rattus norvegicus with 12 samples.

Results

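Castration was compared with vehicle treatment in the ventral prostate of adult male Wistar rats, with 3 arrays from each group, 6 of the 12 arrays of the series. All genes of the value table whose probe set carried 1 gene symbol were used, 14506 in all, and none was selected by its values. Rats of the castrated group were 90 days old when the testes were removed by orchiectomy through the scrotum, under ketamine at 150 mg/kg and xylazine at 10 mg/kg. Rats of the control group had the same age, kept their testes and received the corn oil vehicle only. Tissue was collected after 3 days, and total RNA of the whole tissue was hybridised as biotinylated cDNA to Affymetrix arrays. The labels list anaesthesia and surgery for castrated rats and corn oil for control rats, and do not say whether rats that were only castrated received corn oil. Surgery, anaesthesia, oil and the loss of the testes therefore cannot be told apart. The arrays are not tied to named animals in the labels, and the spread that the p-values rest on is that between samples, which may be technical in part.

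The ventral prostate is a lobe of the rat prostate whose luminal epithelial cells, under testicular androgen, make large amounts of a few secreted proteins. Androgen binds the androgen receptor, a transcription factor, in these cells and in the surrounding stroma. After castration the lobe stops secreting, loses epithelial cells and shrinks, and it regrows when androgen is given back.

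The deposited levels were read as log2 values. Differences are castrated minus control, each with its standard error, and 1 unit stands for 2-fold. A gene is said to have risen or fallen when its adjusted p in limma was under 0.05. In these whole-tissue samples, fewer cells of a type and less RNA per cell cannot be told apart. The tissue carried the label's markers: the prostatein subunit genes Scgb2a1 and Scgb1d2, which encode the main secreted protein of this lobe, averaged 12.64 and 12.84 on castrated arrays, against 12.86 and 13.18 on control arrays, and the prostate transcription factor gene Hoxb13 averaged 10.54 against 10.89. None of these 3 genes passed the test. Of 4 seminal vesicle markers 0 passed the test. Svs5, Svs6 and Semg1 averaged 3.44, 2.90 and 2.91 on castrated arrays and 3.48, 2.68 and 3.19 on control arrays. Svs4 was higher, at 5.88, 5.01 and 4.79 on castrated arrays and 5.76, 6.46 and 7.25 on control arrays (-1.26 ± 0.38, adjusted p = 0.0659). The summed level of the 4 was 5.74 to 6.39 on castrated arrays and 6.32 to 7.49 on control arrays, and the part of seminal vesicle RNA in the results was not tested.

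One castrated array stood apart. On castrated 2, 200 genes differed more than 2-fold from the mean of the other castrated arrays, against 46 genes on castrated 1, 83 on castrated 3 and 27 to 60 on the control arrays. Adipoq, a hormone gene of fat cells, measured 4.86, 6.69 and 4.11 on the castrated arrays and 4.35, 4.13 and 4.75 on the control arrays. Myh4, a skeletal muscle myosin gene, measured 4.26, 5.80 and 4.22 on the castrated arrays and 4.12, 4.19 and 4.37 on the control arrays. Both were highest on castrated 2. Castrated 3 had the highest mean over interferon-induced genes, 7.24, where castrated 1 and 2 had 6.41 and 6.47 and the controls 6.21 to 6.35. Counts are therefore also given without one array at a time.

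Of the 14506 genes, 1872 changed (12.9%): 1108 rose (7.64%) and 764 fell (5.27%). Most changes were small: 586 were below 0.585 on the log2 scale (1.5-fold), 847 lay between 0.585 and 1, 376 between 1 and 2, and 63 at 2 or more. At least 2-fold changes numbered 439 (3.03%), with 239 genes that rose and 200 that fell. With all 12 arrays in the fit, so that the other groups share the estimate of the spread, 803 genes changed (5.54%), 460 up and 343 down, and 802 of these were among the 1872. When estradiol arrays 1 and 2 were left out of that fit, 2408 genes changed, 1451 up and 957 down, and 1853 of the 1872 stayed called. The SD over all probe sets was 1.93 and 2.01 on those arrays, against 2.24 to 2.30 on the castrated and control arrays. Their part in the 12-array counts given below was not tested. When each array was first centred on its median, 777 genes rose and 1018 fell, because the median difference of all genes moved to -0.0741 from 0.0089. Without castrated 2 the count was 2604, and without control 1, 2 or 3 it was 1171, 831 or 996. No called gene changed sign in any of the 16 alternatives tried. Several of these alter only the spread or the set of genes tested, and there a sign could not change.

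How often a gene was called depended on its level. When genes were ordered by mean level and cut into 4 bins of about equal size, 2.26% changed in the lowest bin (1.52% rose and 0.744% fell) and 8.22% in the next (6.43% rose and 1.79% fell). In the bin above these 17.1% changed, 11% up and 6.04% down. In the highest bin 24.1% changed, 11.6% up and 12.5% down. Shares of gene families below were not adjusted for level, and most are set only against all genes. Several lists were bright: the median control level was 10.37 for the translocon list, 9.57 for the respiratory chain and 9.34 for vesicle coats. Shares of such lists are better set against the highest bin, where 12.5% fell.

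**Figure D1:**
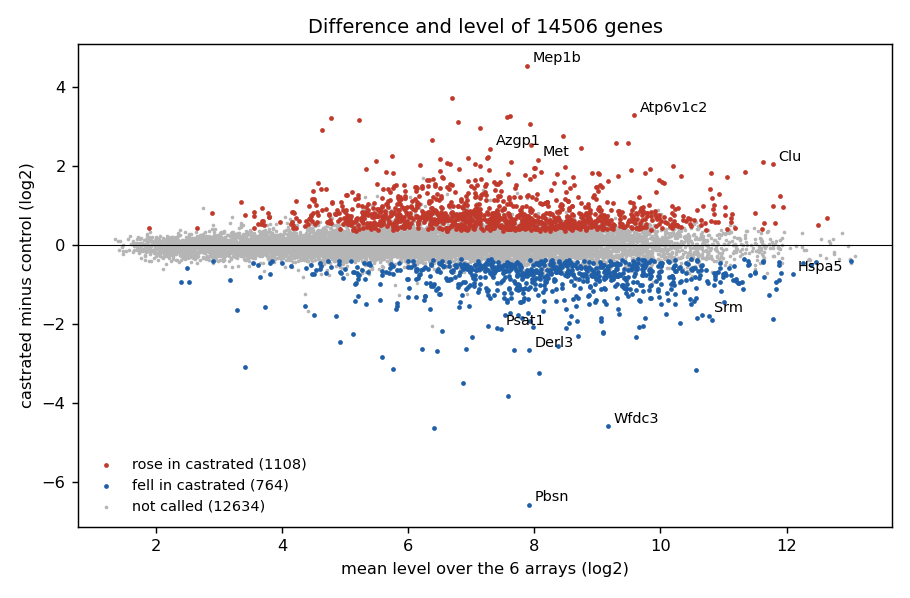
Difference between castrated and control (vertical, log2) against the mean level over the 6 arrays (horizontal, log2), 1 point per gene. Red points rose (1108), blue points fell (764) and grey points were not called; Pbsn, at -6.57, and Mep1b, at 4.53, lie farthest from 0.

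In 4 families of the secretory route, called members were nearly all lower. The counts that follow run along the route of a secreted protein, from the channel that admits it to the endoplasmic reticulum, through sugar attachment and folding, to the vesicles that carry it onward. In none of these families did more than 1 member rise.

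The translocon threads new proteins into the endoplasmic reticulum, and signal peptidase trims them. Of 22 measured genes of this step, 14 fell (63.6%) and 0 rose, with a median of -0.61 against 0.0089 for all genes. Ssr4, a subunit of the translocon-associated complex, measured 9.58, 9.85 and 9.78 on castrated arrays and 11.34, 11.17 and 11.19 on control arrays (-1.50 ± 0.12, adjusted p = 0.0001488). Sec61g, a subunit of the channel itself, measured 9.36, 9.16 and 9.60 on castrated arrays and 10.76, 10.35 and 10.55 on control arrays (-1.18 ± 0.15). For both genes every castrated array lay below every control array. Sec11c, a signal peptidase subunit, fell by 1.34, and Sec61a1, the pore of the channel, by 0.97. In the 12-array fit 9 of the 22 fell, and 12 to 18 did when single arrays were left out.

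Genes that build or transfer N-linked sugar chains fell less uniformly. Of 40, 17 fell (42.5%) and 1 rose, with a median of -0.42. Ostc, a subunit of the transferase that attaches the chain, measured 7.99, 8.21 and 8.16 on castrated arrays, against 9.80, 9.54 and 9.51 on control arrays (-1.50 ± 0.12, adjusted p = 0.0002007). Gmppb, which makes the mannose donor GDP-mannose, fell by 1.31 and Nans, which makes sialic acid, by 1.04. The member that rose was Ugdh, which makes UDP-glucuronate, at 7.76, 8.16 and 7.86 on castrated arrays and 6.79, 6.76 and 6.87 on control arrays. UDP-glucuronate serves proteoglycan synthesis and glucuronidation rather than N-glycans. The count of fallen members was 9 with all 12 arrays and 7 to 21 with single arrays left out.

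Protein folding in the endoplasmic reticulum had the largest share of fallen genes among the 97 lists described. The lists were chosen with earlier results of these data known, so this rank is no independent evidence. Of 39 measured genes of folding and of the unfolded protein response, 29 fell (74.4%) and 0 rose, with a median of -0.88. Castrated and control arrays did not overlap for 32 of them, all lower, where 13.7% of all genes were lower without overlap. Derl3, which helps to extract misfolded proteins for degradation, measured 6.81, 6.01 and 6.94 on castrated arrays and 9.28, 9.54 and 8.95 on control arrays. It was 6.35-fold lower in castrated rats (-2.67 ± 0.25, adjusted p = 0.0003868), the largest fall of the list. Sdf2l1, a partner of the reticulum's Hsp40 chaperones, measured 7.71, 7.15 and 7.47 on castrated arrays and 9.80, 9.61 and 9.25 on control arrays (-2.11 ± 0.18). Creld2, a disulphide-handling protein, was 3.63-fold lower, Fkbp11, a prolyl isomerase, 3.61-fold lower, and Manf, a secreted protein induced by misfolding, 2.70-fold lower in castrated rats. Hspa5, the central Hsp70 chaperone of the compartment, fell less, at 11.66, 11.83 and 11.69 on castrated arrays and 12.52, 12.51 and 12.36 on control arrays (-0.74 ± 0.11, adjusted p = 0.003346). Xbp1, a transcription factor of the unfolded protein response, is active only after its messenger is spliced, which these values do not resolve. It measured 12.14, 11.70 and 12.03 on castrated arrays and 11.82, 11.82 and 11.86 on control arrays, which overlap (0.12 ± 0.13, adjusted p = 0.6381). Without castrated 2, 31 members fell. The 12-array fit gave 23, and the lowest count with 1 array left out was 22.

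Known promoter elements of this response were looked up in the RefSeq promoter windows of rat genes, build GRCr8, which run from 250 bases before to 50 after the start of a gene and were matched for 11950 of the 14506 genes. The endoplasmic reticulum stress element (ERSE, CCAAT and CCACG with 9 bases of any kind between them, on either strand) was present in 15 windows (0.126%). It was present in 8 of the 31 windows of the folding list (25.8%), and it was first described in genes of this kind, so the match was known before. The shorter ERSE-II (ATTGG and CCACG with 1 base between them, on either strand; the patterns can overlap, but no window of the folding list held both) was in 13 of all windows (0.109%) and in 3 of the 31 (9.68%). Among the 24 fallen members with a window, 6 held ERSE (25%) and 3 held ERSE-II (12.5%), shares close to those of the list as a whole. Canx and Xbp1 held ERSE and did not pass the test, with differences of -0.21 and 0.12. The 9 fallen genes with a match were named for their sequence, after their values were seen. Their windows are shown from 5′ to 3′ on the strand of the gene, with the element in capitals, which reads as the reverse complement where it lies on the other strand.
Derl3, chr20:12766576-12766644, minus strand: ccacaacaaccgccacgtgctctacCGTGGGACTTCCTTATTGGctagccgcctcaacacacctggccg
Creld2, chr7:121789214-121789282, plus strand: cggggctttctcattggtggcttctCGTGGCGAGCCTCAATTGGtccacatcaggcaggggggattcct
Calr, chr19:40213117-40213178, plus strand: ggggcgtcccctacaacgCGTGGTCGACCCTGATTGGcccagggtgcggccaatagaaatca
Dnajc3, chr15:102432509-102432577, plus strand: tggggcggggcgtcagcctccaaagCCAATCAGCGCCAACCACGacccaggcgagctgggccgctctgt
Hsp90b1, chr7:23012322-23012494, minus strand: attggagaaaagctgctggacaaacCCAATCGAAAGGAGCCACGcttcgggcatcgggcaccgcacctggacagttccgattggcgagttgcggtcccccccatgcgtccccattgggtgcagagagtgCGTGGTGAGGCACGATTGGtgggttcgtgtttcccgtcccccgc
Hspa5, chr3:38452948-38453015, plus strand: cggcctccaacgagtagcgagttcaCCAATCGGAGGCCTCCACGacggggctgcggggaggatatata
Herpud1, chr19:10614796-10614856, minus strand: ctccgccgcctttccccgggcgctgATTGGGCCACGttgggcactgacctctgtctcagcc
Hyou1, chr8:53602669-53602829, plus strand: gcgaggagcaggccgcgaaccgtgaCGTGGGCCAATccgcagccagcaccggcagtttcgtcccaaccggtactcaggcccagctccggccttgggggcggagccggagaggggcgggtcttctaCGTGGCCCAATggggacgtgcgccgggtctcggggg
Dnajb11, chr11:91672800-91672835, minus strand: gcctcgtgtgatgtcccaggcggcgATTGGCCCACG

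The 9 genes fell by different amounts. Derl3 and Creld2 are given above. Herpud1, a membrane protein of the degradation route, fell by 1.43, Hyou1, a large Hsp70-like chaperone, by 1.40, and Calr, the calcium-binding chaperone calreticulin, by 1.10. Dnajb11 and Dnajc3, both Hsp40 partners of Hspa5, fell by 1.03 and 0.92. Hsp90b1, the reticulum's Hsp90, fell by 0.74, as did Hspa5. A match to these letters is a description and not a site of binding, and no transcription factor was measured at these promoters.

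Beyond the reticulum, 30 of 51 genes of vesicle coats, tethers and cargo receptors fell (58.8%) and 0 rose, with a median of -0.50. Kdelr3, a receptor that returns escaped chaperones to the reticulum, measured 7.38, 8.09 and 7.66 on castrated arrays and 9.66, 9.57 and 9.67 on control arrays (-1.92 ± 0.17, adjusted p = 0.0003078). The arrays did not overlap. Sec24d, which selects cargo for COPII vesicles, was 2.32-fold lower, the cargo receptors Surf4 and Lman1 were 2.30-fold and 2.04-fold lower, and the tether Uso1 was 1.98-fold lower in castrated rats. This count depended on the arrays used: 9 members fell with all 12 arrays, among which Uso1 was not, and 13 to 35 with single arrays left out. Later transport was less uniform. Of 54 Rab GTPase genes, switches of vesicle traffic, 4 rose and 5 fell (16.7%, beside 12.9% of all genes). With all 12 arrays 2 rose and 0 fell. The median control level of the 54 was 8.06, and in the highest level bin 24.1% of all genes changed. Rab7b, of late endosomes, was the largest rise, at 6.72, 6.38 and 6.51 on castrated arrays and 5.49, 5.37 and 5.18 on control arrays.

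**Figure D2:**
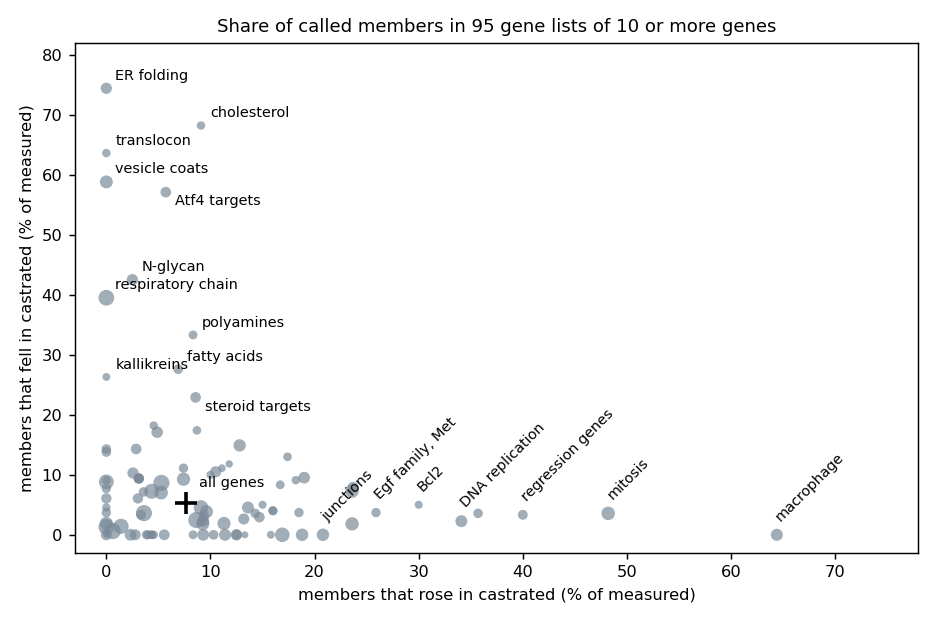
Share of members that rose (horizontal, % of measured) and fell (vertical, % of measured) in castrated rats for each of 95 lists of 10 or more measured genes; a larger point is a longer list, and the cross marks all 14506 genes at 7.64% and 5.27%. Lists of secretion, cholesterol synthesis and the respiratory chain lie along the vertical axis, and those of macrophages and mitosis along the horizontal one.

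The products of the route did not move together. Of 22 secretory products of the lobe, 4 fell and 1 rose (22.7%, beside 12.9% of all genes). The same numbers were called with all 12 arrays. Pbsn, probasin, measured 4.96, 4.37 and 4.54 on castrated arrays and 10.50, 11.47 and 11.63 on control arrays. Andpro, an androgen-regulated secreted protein, measured 11.35, 9.72 and 11.47 on castrated arrays and 12.83, 12.71 and 12.66 on control arrays (-1.88 ± 0.40, adjusted p = 0.0169). The groups did not overlap, castrated 2 was the lowest, and the call ended without any 1 of the 3 control arrays. Cyss, a cystatin, was 4.51-fold lower in castrated rats. The member that rose was Azgp1, zinc-alpha-2-glycoprotein, a secreted protein with a fold like that of class I histocompatibility molecules, at 8.63, 8.74 and 8.19 on castrated arrays and 6.32, 6.07 and 5.87 on control arrays (2.43 ± 0.17, adjusted p = 0.0001137).

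Among secreted protease and inhibitor families, 5 of 19 kallikreins fell (26.3%, beside 5.27% of all genes) and 0 rose. They were led by Klk1c12, which was 2.90-fold lower in castrated rats. In the 12-array fit 2 kallikreins fell, and kallikrein genes are near-identical copies, so their probe sets may share signal. Wfdc3, of the whey acidic protein family of protease inhibitors, measured 7.37, 7.06 and 6.18 on castrated arrays and 11.55, 11.45 and 11.37 on control arrays. Its family was split: of 27 Wfdc and Spink genes, Wfdc3, Wfdc11 (-1.63 ± 0.19) and Wfdc5 (-1.33 ± 0.26) fell, and Spint1 (0.83 ± 0.17) and Wfdc2 (0.60 ± 0.14) rose. The share called was 18.5%, beside 12.9% of all genes. The calls of Spint1 and Wfdc2 ended without castrated 3, control 2 or control 3, among others. The call of Wfdc5 ended with all 12 arrays and without control 2 or 3. Cpm and Cpa6, metallocarboxypeptidases, were 2.58-fold and 14.1-fold lower, while the meprin subunit gene Mep1b measured 10.16, 10.51 and 9.76 on castrated arrays and 5.63, 5.75 and 5.46 on control arrays. Of 37 beta-defensin genes 0 changed (0%, beside 12.9% of all genes). Defb50 had the smallest p, at -1.24 ± 0.41 (adjusted p = 0.0884). Of 36 serpins 1 rose (2.78%, beside 7.64% of all genes). Median control levels were low, at 4.23 for beta-defensins and 4.18 for serpins. In the lowest level bin 2.26% of all genes changed and 1.52% rose, so neither count is read as a result about these families.

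Many genes of amino acid supply fell as well. Of 35 targets of the transcription factor Atf4 and genes of serine synthesis, 20 fell (57.1%) and 2 rose, with a median of -0.49. Psat1, which makes phosphoserine, measured 6.20, 6.69 and 6.31 on castrated arrays and 7.97, 8.96 and 8.64 on control arrays (-2.12 ± 0.24, adjusted p = 0.001018). Phgdh, the first enzyme of that path, measured 6.72, 6.56 and 6.72 on castrated arrays and 7.66, 7.86 and 7.94 on control arrays (-1.15 ± 0.12). Neither gene overlapped between the groups. Gpt2, an alanine transaminase, was 2.70-fold lower, and Mthfd2, of mitochondrial folate metabolism, 2.26-fold lower in castrated rats. Its relative Mthfd1l, also mitochondrial, rose, at 8.38, 8.48 and 8.55 on castrated arrays and 7.02, 6.80 and 7.02 on control arrays. Atf4 itself measured 9.58, 9.63 and 9.44 on castrated arrays and 10.01, 9.91 and 9.94 on control arrays (-0.41 ± 0.10, adjusted p = 0.0372). It was no longer called with all 12 arrays, under quantile normalization and the replicate block, and without 5 of the 6 single arrays. The fit to 12 arrays called 11 of the 35 members lower, and 9 to 20 with single arrays left out.

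The C/EBP-Atf response element (CARE, TGATGNAA on either strand), through which Atf4 acts, was in 356 of 11950 promoter windows (2.98%) and in 6 of 30 of this list (20%). The list was drawn up in part from known Atf4 targets, so its share is no independent evidence. One of the 6, Trib3, did not pass the test, with a difference of -0.07, and the other 5 fell. They were likewise named for their sequence after their values were seen, and their windows are shown with the element in capitals.
Nupr1, chr1:190645924-190645981, minus strand: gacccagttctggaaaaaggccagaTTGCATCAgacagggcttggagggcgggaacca
Slc1a4, chr14:98761765-98761812, minus strand: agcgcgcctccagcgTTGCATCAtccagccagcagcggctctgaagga
Pck2, chr15:32997603-32997646, plus strand: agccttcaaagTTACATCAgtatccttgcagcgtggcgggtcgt
Chac1, chr3:126795939-126795996, plus strand: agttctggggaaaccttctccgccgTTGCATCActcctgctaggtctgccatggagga
Slc7a1, chr12:11664433-11664487, plus strand: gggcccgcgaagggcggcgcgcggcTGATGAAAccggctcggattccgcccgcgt

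Among these, Nupr1, a stress-induced nuclear protein, had the largest difference and the widest spread: 8.34, 10.11 and 7.66 on castrated arrays, against 10.06, 11.04 and 11.13 on control arrays (-2.04 ± 0.56, adjusted p = 0.0458). Its groups overlapped, because castrated 2 lay above the lowest control. Slc1a4, a transporter of neutral amino acids, fell by 0.95, Pck2, the mitochondrial enzyme that makes phosphoenolpyruvate, by 0.77, Chac1, which degrades glutathione, by 0.64, and Slc7a1, a transporter of cationic amino acids, by 0.43. Slc1a4 and Slc7a1 were not called with all 12 arrays.

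Transporters of amino acids went both ways. Of 47, 6 rose and 7 fell (27.7%, beside 12.9% of all genes), and with all 12 arrays 1 rose and 3 fell. Slc7a11, the cystine carrier, measured 4.11, 3.74 and 3.99 on castrated arrays and 5.47, 6.30 and 5.46 on control arrays (-1.79 ± 0.23, adjusted p = 0.001619). Slc7a12 was 2.96-fold lower. In the other direction Slc1a3, a glutamate carrier, measured 6.50, 6.45 and 6.46 on castrated arrays and 5.46, 5.37 and 5.67 on control arrays. Of 28 aminoacyl-tRNA synthetases, which load amino acids onto tRNA, 4 fell (14.3%, beside 5.27% of all genes) and 0 rose. The largest fall was that of Wars1 (-0.94 ± 0.17), and 0 of the 28 were called with all 12 arrays. The median control level of the 28 was 8.21, and in the highest level bin 12.5% of all genes fell.

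Ribosomal proteins changed little. Of 71 cytosolic ribosomal protein genes 1 rose and 1 fell (2.82%, beside 12.9% of all genes), and with all 12 arrays 0 did. Of 39 proteasome subunits 1 rose and 4 fell (12.8%), and with all 12 arrays 0 were called. Genes of ribosome assembly went up where they changed: of 48, 9 rose (18.8%) and 0 fell, and with all 12 arrays 4 rose. Npm1, a nucleolar chaperone, measured 9.83, 10.16 and 10.06 on castrated arrays and 9.39, 9.04 and 9.17 on control arrays (0.81 ± 0.13, adjusted p = 0.005906), and Nob1, which finishes the small subunit, was 1.83-fold higher. Of 44 translation initiation factors 6 rose and 2 fell (18.2%). Their median control level was 9.02, and in the highest level bin 24.1% of all genes changed. Eif4b, which helps to unwind messengers, had the largest rise, at 11.24, 11.46 and 11.33 on castrated arrays and 10.28, 10.37 and 10.38 on control arrays. In the fit to 12 arrays 1 initiation factor rose and 0 fell. The cytosolic chaperones Hsp90aa1 and Hsp90ab1, partners of steroid receptors, were 1.83-fold and 1.74-fold higher, opposite in direction to Hsp90b1 of the reticulum.

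Most measured genes of cholesterol synthesis fell. Of 22 measured genes, 15 fell (68.2%) and 2 rose, with a median of -0.72. Idi1, of the isoprenoid step, measured 7.24, 7.13 and 6.77 on castrated arrays and 8.55, 9.09 and 8.65 on control arrays (-1.72 ± 0.18, adjusted p = 0.0006557). Lss, which closes the sterol rings, measured 9.37, 8.90 and 9.21 on castrated arrays and 10.61, 10.53 and 10.39 on control arrays (-1.35 ± 0.14). No castrated array reached a control array in either gene. Acat2, Tm7sf2 and Dhcr7, at other steps, were 3.08-fold, 3.40-fold and 2.18-fold lower. Insig2 rose, at 9.32, 9.41 and 9.12 on castrated arrays and 7.81, 7.96 and 7.78 on control arrays (1.43 ± 0.12, adjusted p = 0.0001951), whereas its relative Insig1 fell by 0.90. Both proteins hold back the sterol-sensing transcription factors, and Insig1 is itself one of their targets. The 12-array count of fallen members was 9, against 11 to 16 with single arrays left out. The sterol regulatory element (TCACNCCAC on either strand) was in 129 of 11950 promoter windows (1.08%) and in 0 of 18 of this list. No match says only that these letters are not in these windows.

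Of 29 genes of fatty acid and triglyceride synthesis, 8 fell (27.6%) and 2 rose. Elovl6, which lengthens fatty acids, measured 6.92, 6.78 and 7.62 on castrated arrays and 9.07, 10.13 and 9.77 on control arrays (-2.55 ± 0.29, adjusted p = 0.001018). Scd, a desaturase, measured 6.62, 6.24 and 6.20 on castrated arrays and 8.47 on each control array (-2.11 ± 0.13), and its relative Scd2 was 3.41-fold lower. The groups stood apart in all 3 genes. The members that rose were Thrsp, a nuclear protein linked to fat synthesis, at 8.35, 7.07 and 7.61 on castrated arrays and 5.02, 5.82 and 6.05 on control arrays, and Lpin2, a phosphatidate phosphatase, at 2.23-fold. Adipocyte markers summed to 6.21 to 7.64 on castrated arrays and 6.37 to 6.53 on control arrays, with castrated 2 the highest, and 0 of 3 passed the test.

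Polyamines are made in unusual amounts by the prostate, and 8 of 24 genes of their synthesis and turnover fell (33.3%), while 2 rose. Srm, spermidine synthase, measured 10.12, 9.33 and 10.15 on castrated arrays and 11.56, 11.87 and 11.55 on control arrays (-1.79 ± 0.22, adjusted p = 0.001332). Amd1, which supplies the aminopropyl group, measured 8.84, 8.98 and 8.94 on castrated arrays and 10.14, 10.13 and 10.21 on control arrays (-1.24 ± 0.10). Both were clear of overlap. Adi1 and Mtap, of the methionine salvage that follows, were 2.67-fold and 1.91-fold lower, and Odc1, ornithine decarboxylase, 1.75-fold lower in castrated rats. Apip, another salvage enzyme, rose by 0.61, and Sat1, which acetylates polyamines for breakdown, by 0.60. Neither of these rises was called with all 12 arrays, and that of Sat1 also ended under both alternative scalings and without any castrated array.

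Of 76 genes of the respiratory chain and ATP synthase, 30 fell (39.5%) and 0 rose, with a median of -0.35. The falls were spread over several complexes. Atp5mc1, a membrane subunit of ATP synthase, measured 8.14, 7.50 and 8.13 on castrated arrays and 9.42, 9.29 and 9.18 on control arrays (-1.37 ± 0.18, adjusted p = 0.001861). Ndufa1, of complex I, measured 6.78, 6.45 and 6.63 on castrated arrays and 8.24, 7.73 and 7.93 on control arrays (-1.35 ± 0.15), and Cox7b, of cytochrome c oxidase, was 2.44-fold lower. In these genes the groups were separate. Fallen members numbered 11 with all 12 arrays and 18 to 37 with single arrays left out. Of 68 mitochondrial ribosomal proteins 6 fell (8.82%, beside 5.27% of all genes) and 0 rose, and 1 fell in the 12-array fit. Of 32 genes of citrate production and the citric acid cycle, 3 rose and 1 fell, a share of 12.5% beside 12.9% for all genes. Among these Idh1, the cytosolic isocitrate dehydrogenase, measured 10.08, 10.44 and 10.03 on castrated arrays and 9.33, 9.27 and 9.54 on control arrays.

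Of 32 glycolysis and glucose uptake genes 3 fell and 1 rose (12.5%, beside 12.9% of all genes). The same counts held with all 12 arrays. Of the 3 that fell, a pair make or remove the activator of phosphofructokinase: Pfkfb4 measured 7.12, 6.90 and 6.83 on castrated arrays and 8.94, 9.12 and 8.99 on control arrays (-2.07 ± 0.12, adjusted p = 4.274e-05), and Pfkfb2 was 2.04-fold lower. Hk2, a hexokinase, was 1.84-fold lower. Slc16a1, a lactate carrier, was 2.34-fold higher in castrated rats.

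**Figure D3:**
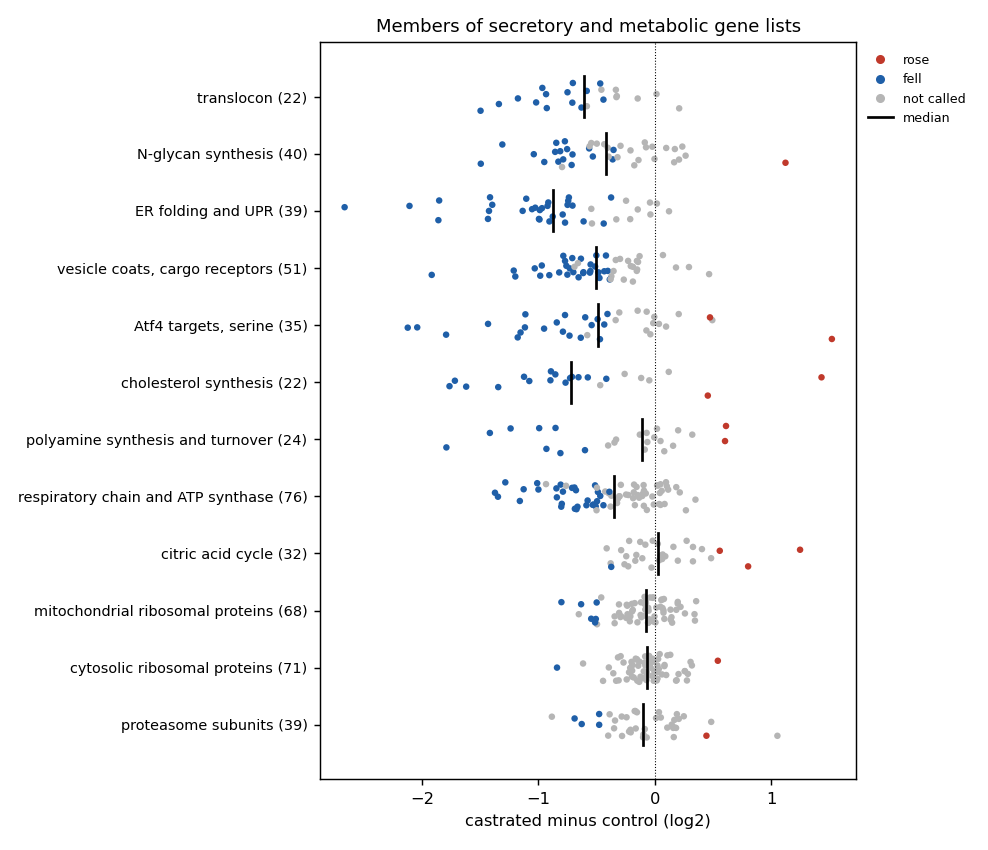
Castrated minus control (log2) for each measured member of 12 secretory and metabolic lists, with the number of members in brackets, red for rose, blue for fell and grey for not called; the black bar is the list's median. Medians lie at -0.88 for folding in the endoplasmic reticulum and -0.72 for cholesterol synthesis, and at -0.11, -0.07 and -0.10 for polyamines, cytosolic ribosomal proteins and proteasome subunits.

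Nucleotide synthesis and cell division moved the other way. Of 28 genes of nucleotide and one-carbon synthesis, 10 rose (35.7%) and 1 fell, and with all 12 arrays 2 rose. Paics, of purine synthesis, measured 9.01, 9.10 and 9.14 on castrated arrays and 8.03, 8.18 and 8.12 on control arrays (0.98 ± 0.10, adjusted p = 0.0007657). Of 44 DNA replication genes 15 rose (34.1%) and 1 fell. The largest was Lig1, the ligase that joins replicated fragments, at 7.86, 7.68 and 7.62 on castrated arrays and 6.26, 6.39 and 6.55 on control arrays (1.32 ± 0.12, adjusted p = 0.000343). With all 12 arrays 3 rose, and 2 to 14 with single arrays left out. The fallen member Mcm2, of the replicative helicase, was the weakest call, at -0.45 ± 0.13 (adjusted p = 0.0495), and ended in 9 of the alternatives.

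Of 56 mitosis genes 27 rose (48.2%) and 2 fell, with a median of 0.49. Top2a, topoisomerase II alpha, measured 6.09, 6.91 and 6.18 on castrated arrays and 4.82, 5.05 and 5.03 on control arrays (1.43 ± 0.21, adjusted p = 0.003112). Ccna2, cyclin A2, measured 5.34, 5.88 and 5.75 on castrated arrays and 4.21, 4.38 and 4.61 on control arrays (1.26 ± 0.17). Plk1, a mitotic kinase, was 2.17-fold higher. The groups did not overlap in these genes. Cks1b, a partner of cyclin-dependent kinases, fell, at 8.51, 8.40 and 8.64 on castrated arrays and 10.27, 10.26 and 9.90 on control arrays (-1.63 ± 0.13), and so did Fam83d, a spindle protein. With all 12 arrays 14 rose and the same number, 2, fell, and 12 to 25 rose with single arrays left out. Control levels of the list were low, with a median of 4.59 where the median of all genes was 6.13. In which cells these genes rose was not measured. Macrophage markers rose on the same arrays, as described below, and their part in this count was not tested.

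At the entry to the cycle, Ccnd1, cyclin D1, measured 8.11, 8.02 and 8.55 on castrated arrays and 9.42, 9.51 and 9.57 on control arrays (-1.27 ± 0.15, adjusted p = 0.001137). Ccng2, a cyclin of arrested cells, measured 8.12, 8.29 and 7.96 on castrated arrays and 6.18, 5.95 and 6.29 on control arrays (1.99 ± 0.13). Cdkn2c, an inhibitor of the kinases that cyclin D activates, was 1.99-fold higher. Each of the 3 was clear of overlap. Over the 25 G1 genes 4 rose and 1 fell (20%, beside 12.9% of all genes).

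Of 35 genes known as targets of the androgen or glucocorticoid receptor, 8 fell (22.9%) and 3 rose. Fkbp5, a co-chaperone that both receptors induce, measured 8.81, 9.13 and 8.56 on castrated arrays and 10.65, 10.73 and 10.68 on control arrays (-1.85 ± 0.15, adjusted p = 0.0001799). Tsc22d3, another shared target, was 2.32-fold lower and Dbi, the acyl-CoA binding protein, 2.07-fold lower in castrated rats. Ndrg1, which androgen induces in human prostate cells, rose instead, at 9.61, 9.10 and 9.11 on castrated arrays and 7.49, 7.89 and 7.64 on control arrays (1.60 ± 0.17). The 12-array fit called 5 lower and 2 higher.

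Among receptors, Esr2, oestrogen receptor beta, measured 6.89 to 7.27 on castrated arrays and 8.90, 8.93 and 7.64 on control arrays (-1.44 ± 0.31, adjusted p = 0.0192). The groups were separate, by a narrow margin against control 3, and the call ended without castrated 1 and without control 1 or 2. Prlr, the prolactin receptor, fell by 0.90, and Nr3c2, the mineralocorticoid receptor, rose by 0.79. Neither call held with all 12 arrays. Over the 22 steroid, prolactin and growth hormone receptors and their co-regulators 4 rose and 2 fell (27.3%, beside 12.9% of all genes). The other 3 that rose were Gata2, Ncoa4 and Hsp90aa1. The median control level of the 22 was 8.53, and in the highest level bin 24.1% of all genes changed. In the 12-array fit 1 rose and 1 fell. Esr1 and Pgr did not pass the test, with differences of -0.24 and -0.11. Ppard, a nuclear receptor for fatty acids, rose, at 10.69, 9.13 and 9.96 on castrated arrays and 7.96, 8.20 and 8.25 on control arrays (1.79 ± 0.33, adjusted p = 0.009198), with castrated 2 the lowest of its group. Over 34 nuclear receptors outside the steroid group 5 rose and 1 fell (17.6%). Thra, thyroid receptor alpha, was 1.63-fold higher.

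**Figure D4:**
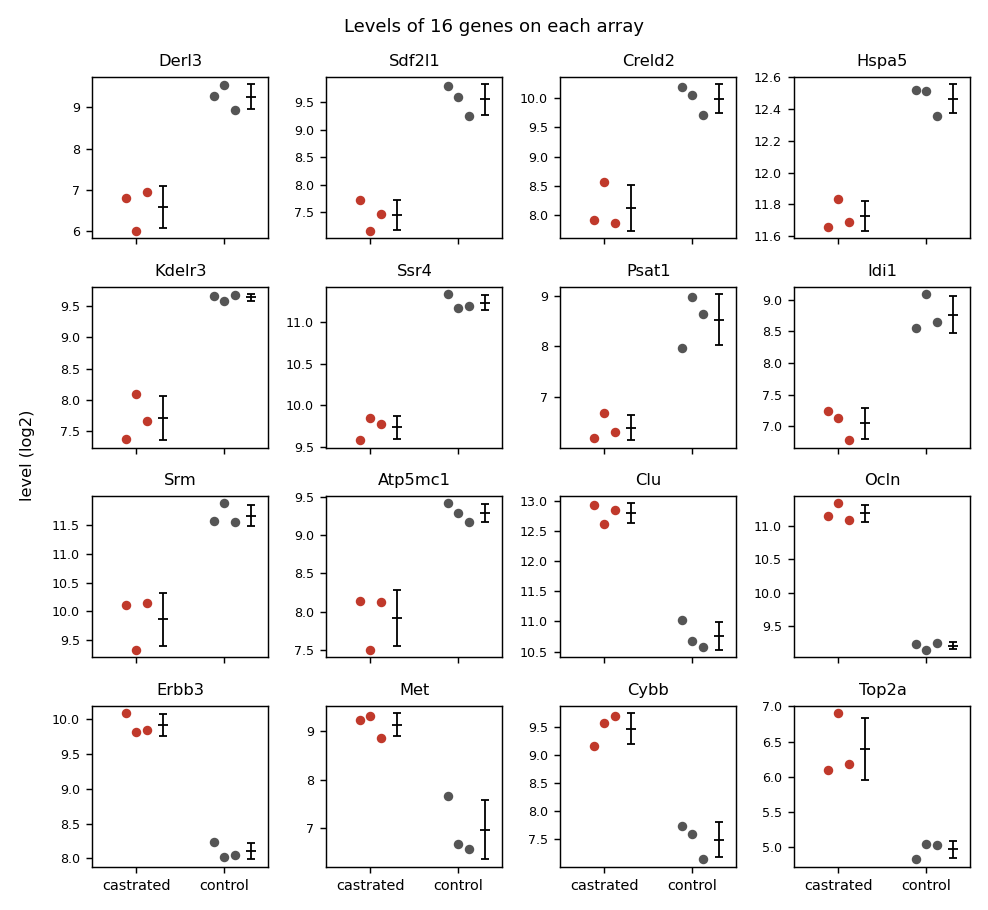
Levels (log2) of 16 genes on each of the 3 castrated arrays (left) and 3 control arrays (right), with the mean and SD beside each group. Derl3 to Atp5mc1 are lower and Clu to Top2a are higher on the castrated arrays, without overlap in any of the 16.

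Phagocyte genes had the largest share of risen members among the 97 lists. This rank, too, is among lists chosen with earlier results of these data known, and is no independent evidence. Of 45 measured genes of macrophages and other phagocytes, 29 rose (64.4%) and 0 fell, and the median difference was 0.98. Cybb, the catalytic subunit of the phagocyte oxidase, measured 9.16, 9.56 and 9.69 on castrated arrays and 7.74, 7.59 and 7.14 on control arrays (1.98 ± 0.19, adjusted p = 0.0004561). Tyrobp, a signalling adaptor of myeloid cells, measured 8.85, 8.71 and 9.37 on castrated arrays and 7.42, 6.92 and 6.79 on control arrays (1.94 ± 0.21). Castrated 3 was the highest array for both, and the groups did not overlap. Gpnmb, a glycoprotein of lysosome-rich cells, and Mmp12, macrophage elastase, were 9.55-fold and 9.39-fold higher. With all 12 arrays 19 rose, and 20 to 33 with single arrays left out. Of the 6 defining macrophage markers, 3 rose (Cd68, Csf1r and Aif1), and Cd163, Mrc1 and Itgam did not pass the test. Their summed level was 9.65 to 10.40 on castrated arrays and 8.39 to 8.92 on control arrays. The call of Cd68, at 7.88, 7.31 and 8.68 on castrated arrays and 6.72, 6.58 and 6.10 on control arrays, ended with all 12 arrays and without control 2 or 3.

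Genes of other blood cells changed rarely. Of 36 T and B lymphocyte genes 2 rose (5.56%), and of 23 mast cell and neutrophil genes 1 rose (4.35%). Median control levels of these lists were low, at 4.93 and 4.51. In the lowest level bin 2.26% of all genes changed, and in the next 8.22%. One of the 6 T cell markers rose, Cd3g, with a mean of 3.98 on castrated arrays and 3.38 on control arrays. In control tissue that level lay at percentile 8.8 of all genes. Markers of T cells summed to 8.82 to 9.80 on castrated arrays and 8.32 to 8.78 on control arrays. That sum rests mostly on Cd4, which averaged 8.92 on castrated and 8.07 on control arrays and did not pass the test (adjusted p = 0.0857). Cd3d, Cd3e, Cd8a and Cd2 differed by 0.15, 0.09, 0.03 and 0.26, and did not pass either.

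Signals and sensors of the immune system rose in part. Cxcl16, a membrane-bound chemokine and scavenger receptor, measured 10.47, 10.48 and 10.47 on castrated arrays and 8.78, 8.57 and 8.41 on control arrays (1.89 ± 0.12, adjusted p = 7.155e-05). Cx3cl1, fractalkine, was 2.33-fold higher, and its receptor Cx3cr1 3.85-fold higher, though the call of Cx3cr1 ended with all 12 arrays. Over the whole family of 54 chemokines and receptors 5 rose and 1 fell (11.1% called), and with all 12 arrays 2 rose and 0 fell. Il1rn, which blocks the interleukin 1 receptor, measured 6.37, 6.12 and 6.36 on castrated arrays and 4.86, 4.67 and 4.70 on control arrays (1.54 ± 0.12), and Il18 was 2.98-fold higher. Both were without overlap. Of 65 interleukins and receptors 11 rose (16.9%, beside 7.64% of all genes) and 0 fell, and with all 12 arrays 5 rose. Of 55 Toll-like receptors and C-type lectins 13 rose (23.6%) and 1 fell. In the 12-array fit 9 rose, and 6 to 13 with single arrays left out. Tlr7, a sensor of single-stranded RNA, was 3.13-fold higher, while Tlr6 measured 7.10, 7.01 and 6.78 on castrated arrays and 8.71, 8.89 and 9.07 on control arrays (-1.93 ± 0.14, adjusted p = 0.0001113). Of 32 complement genes 4 rose (12.5%), led by the receptor gene C3ar1 at 4.24-fold, and 8 rose without castrated 2. Macrophage markers moved with these families, and their part in them was not tested.

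Interferon-induced genes were mostly higher, with a few large falls, and much of the rise lay on castrated 3. Their mean level was 7.24 on that array, against 6.41 and 6.47 on castrated 1 and 2 and 6.21 to 6.35 on control arrays. The median difference of 42 was 0.54. Without overlap 23 were higher and 4 lower, where 18.8% and 13.7% of all genes were, but only 8 passed the test as risen (19%) and 4 as fallen. With all 12 arrays 3 did in each direction, and with array quality weights 31 rose and 4 fell. Ifi47, an interferon-induced GTPase, measured 7.90, 7.90 and 8.66 on castrated arrays and 6.75, 6.70 and 6.25 on control arrays (1.59 ± 0.23, adjusted p = 0.002909). Oas1k, of the oligoadenylate synthetase family, measured 4.70 to 5.68 on castrated arrays and 8.42 to 8.82 on control arrays (-3.49 ± 0.23). Ifih1, a sensor of double-stranded RNA, measured 9.50, 9.40 and 9.54 on castrated arrays and 10.85, 11.21 and 10.89 on control arrays (-1.51 ± 0.13). These groups did not overlap in either direction. The number that rose ran from 3 to 14 with single arrays left out, and was 14 without castrated 2. Major histocompatibility complex genes showed 1 rise among 43 (2.33%, beside 7.64% of all genes), and 6 without castrated 2.

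In the lysosome, where cells break down proteins, lipids and sugars, 13 of 55 genes rose (23.6%) and 4 fell. Lgmn, a cysteine protease, measured 9.45, 9.64 and 9.59 on castrated arrays and 8.38, 8.47 and 8.35 on control arrays (1.16 ± 0.11, adjusted p = 0.0003515). Ctss, a cathepsin of antigen-presenting cells, was 2.89-fold higher, and Galc and Cln3 were each 2.24-fold higher. Lamp3, a membrane glycoprotein of lysosomes, fell, at 3.94, 4.13 and 4.43 on castrated arrays and 7.14, 7.04 and 6.86 on control arrays (-2.85 ± 0.15, adjusted p = 2.56e-05). Gba3, a cytosolic glucosidase, was 5.47-fold lower. In the 12-array fit 7 rose and 2 fell. The rise of the macrophage markers was not separated from that of the lysosomal genes, and its part was not tested. Of the vacuolar proton pump, which acidifies the lysosome, 2 of 23 subunit genes rose and 4 fell (26.1%, beside 12.9% of all genes). Their median control level was 9.10, and in the highest level bin 24.1% of all genes changed. Atp6v1c2 measured 11.46, 11.06 and 11.16 on castrated arrays and 8.11, 7.69 and 8.03 on control arrays (3.28 ± 0.15). Atp6v1a, a subunit of the same peripheral sector, measured 9.46, 9.43 and 9.49 on castrated arrays and 10.08, 10.37 and 10.30 on control arrays (-0.79 ± 0.11, adjusted p = 0.003043), which was not called with all 12 arrays. Of 32 autophagy genes 1 rose and 3 fell (12.5% in all).

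**Figure D5:**
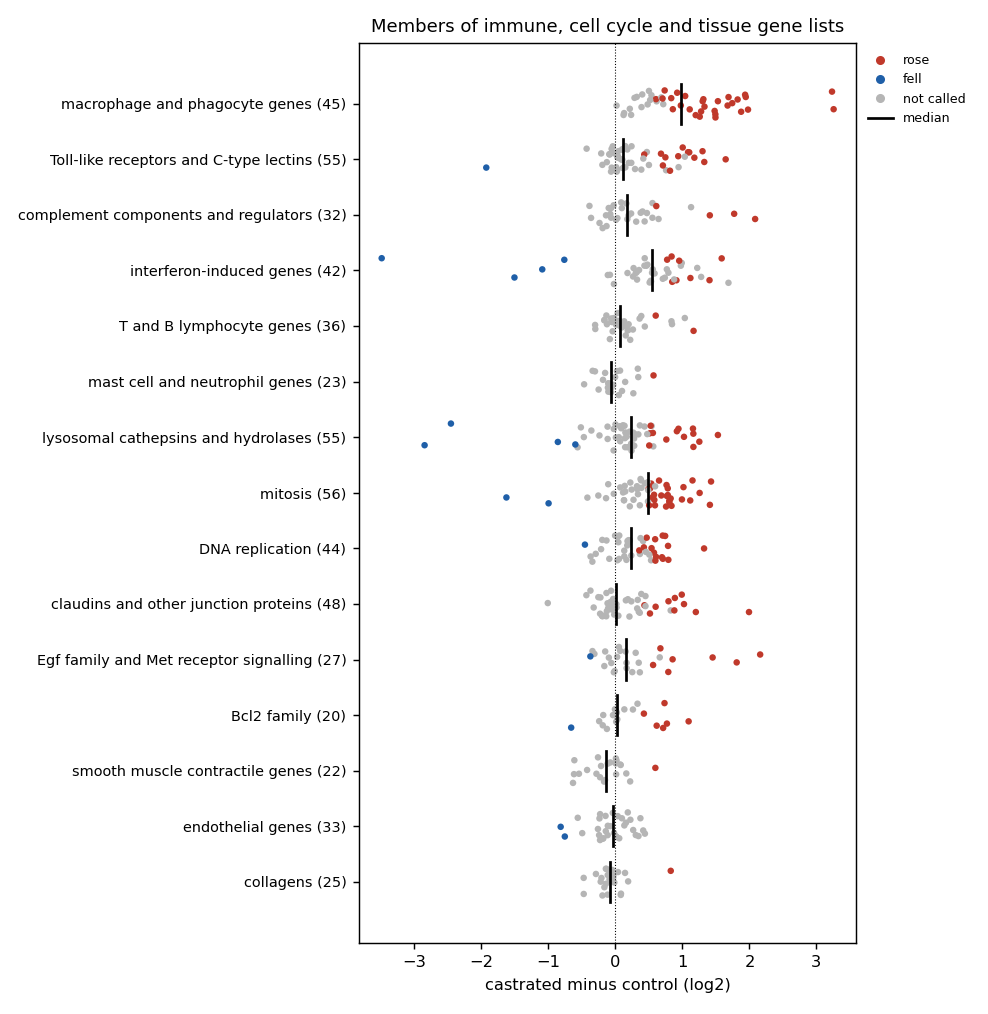
Castrated minus control (log2) for each measured member of 15 immune, cell cycle and tissue lists, with the number of members in brackets, red for rose, blue for fell and grey for not called; the black bar is the list's median. The macrophage list (median 0.98) and mitosis (0.49) lie to the right of 0, and lymphocyte genes, collagens, smooth muscle and endothelial genes are mostly grey.

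Epithelial structure genes rose in a few families. Krt19, Krt8 and Krt18, keratins of simple and luminal epithelium, rose, among 5 of 44 keratins (11.4%, beside 7.64% of all genes). Without castrated 2, 9 keratins rose. Krt8 measured 11.72, 11.52 and 11.47 on castrated arrays and 10.01, 10.43 and 10.42 on control arrays (1.28 ± 0.14, adjusted p = 0.0009719). Of 12 basal epithelial genes 0 passed the test, and Itgb4 had the smallest p, at 0.53 ± 0.16 (adjusted p = 0.0703). Without castrated 2, 3 of the 12 rose. Of 48 claudins and other junction proteins 10 rose (20.8%) and 0 fell, with a median of 0.02, and 6 rose with all 12 arrays. Ocln, occludin of tight junctions, measured 11.15, 11.34 and 11.09 on castrated arrays and 9.23, 9.14 and 9.24 on control arrays (1.99 ± 0.11, adjusted p = 3.898e-05). Cldn4 and Cldn7, claudins of glandular epithelium, were 1.99-fold and 1.85-fold higher. Ocln, Cldn4 and Cldn7 were each without overlap.

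Among receptor tyrosine kinases, 3 members of the Egf receptor family and Met rose. Erbb3 measured 10.09, 9.81 and 9.85 on castrated arrays and 8.24, 8.03 and 8.04 on control arrays (1.81 ± 0.12, adjusted p = 8.958e-05). Erbb4 was 2.73-fold higher and Erbb2, with which both pair, 1.81-fold higher in castrated rats. Met, the receptor for hepatocyte growth factor, measured 9.22, 9.32 and 8.86 on castrated arrays and 7.67, 6.67 and 6.57 on control arrays (2.16 ± 0.27, adjusted p = 0.001694). None of these genes overlapped between the groups. Of the 27 genes of this signalling 7 rose (25.9%) and 1 fell, and with all 12 arrays 6 rose. Among ligands Hbegf rose by 0.79, which ended without castrated 1 and without control 1 or 2. The genes Egf, Tgfa and Hgf, named after their values were seen, did not pass the test, with differences of -0.31, 0.25 and 0.17.

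Other signalling families had a few called members each. Notch1 measured 9.23, 8.37 and 8.46 on castrated arrays and 6.75, 6.55 and 6.45 on control arrays (2.10 ± 0.22, adjusted p = 0.0006854), among 3 of 29 Notch pathway genes that rose (10.3%, beside 7.64% of all genes). Fst, follistatin, which binds activin, was 3.12-fold higher, and Id4, an inhibitor of helix-loop-helix factors, 2.66-fold lower, within a TGF-beta family in which 6 of 66 rose and 3 fell (13.6%). The Wnt family had 3 rises and 4 falls among 57 (12.3%), and with all 12 arrays 0 of these were called. Of 20 genes of the insulin-like growth factor axis 4 were called (20%). Igf1r, Insr and Igfbp3 rose, each by 0.64, and Pappa, a protease of their binding proteins, fell by 0.48, and 0 were called with all 12 arrays. Igf1 did not pass the test (-0.23 ± 0.22). Fgf1 fell and Fgfr2 rose among 30 fibroblast growth factor genes (6.67% called), and both calls ended when single control arrays were left out.

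Glutathione transferases of the mu class rose together. Gstm7 measured 12.75, 12.54 and 12.72 on castrated arrays and 10.27, 10.93 and 10.50 on control arrays (2.11 ± 0.17, adjusted p = 0.0001799). Gstm6 measured 11.04, 9.99 and 10.74 on castrated arrays and 7.32, 8.67 and 8.01 on control arrays (2.59 ± 0.35). Gstm3, Gstm6l and, less, Gstm1 were also higher, by 1.96-fold, 2.38-fold and 1.60-fold. The groups were separate in all 5, but these genes are near-identical neighbours in sequence, so probe sets may share signal and the number of separate genes that rose is uncertain. Of 38 glutathione, glucuronosyl and sulfo transferases 9 rose (23.7%) and 3 fell, and Ugt8, which makes galactosylceramide, was 2.46-fold lower. Of 69 cytochrome P450 genes 3 rose and 5 fell (11.6%). Cyp3a9 measured 6.17, 7.28 and 5.68 on castrated arrays and 3.20, 3.33 and 3.01 on control arrays (3.20 ± 0.34). Cyp4a8, a fatty acid hydroxylase, measured 4.41, 4.25 and 3.65 on castrated arrays and 6.19, 10.39 and 9.59 on control arrays (-4.62 ± 0.90, adjusted p = 0.0117). Control 1 was far below the other controls, and the call ended without control 3.

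Pumps and exporters of the membrane gave a few large changes. Abcc3, an exporter of conjugated compounds, measured 9.82, 9.24 and 9.32 on castrated arrays and 6.54, 6.10 and 6.54 on control arrays (3.06 ± 0.19, adjusted p = 5.74e-05). Abca1, which exports cholesterol, was 2.36-fold higher. In all, 4 of 43 ABC transporters rose (9.3%, beside 7.64% of all genes) and 0 fell, with all 12 arrays as well. Atp1b1, the beta subunit of the sodium pump, measured 9.07, 9.42 and 9.47 on castrated arrays and 11.31, 11.16 and 11.44 on control arrays (-1.98 ± 0.14, adjusted p = 0.0001113). The prostate concentrates zinc, and of 28 zinc transporters and metallothioneins 1 rose and 2 fell (10.7%, beside 12.9% of all genes). Slc30a2 was 2.20-fold higher, and Slc39a7, which releases zinc from the reticulum, 1.82-fold lower in castrated rats. Ferroportin, Slc40a1, the iron exporter, was 2.75-fold higher. Antioxidant enzymes fell in part: 7 of 41 fell and 2 rose (22%, beside 12.9% of all genes). Prdx5, a peroxiredoxin, measured 8.49, 8.59 and 8.43 on castrated arrays and 9.68, 9.49 and 9.66 on control arrays.

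Genes long associated with prostate regression rose in 12 of 30 cases (40%), and 1 fell. This list was taken from what is known of the regressing rodent prostate, so its direction was chosen and is no independent evidence. Clu, clusterin, a secreted chaperone, measured 12.92, 12.62 and 12.85 on castrated arrays and 11.03, 10.67 and 10.58 on control arrays (2.04 ± 0.15, adjusted p = 0.0001148). Sulf1, which trims heparan sulphate, measured 9.92, 9.71 and 9.84 on castrated arrays and 7.02, 6.99 and 7.23 on control arrays (2.75 ± 0.12). Gadd45b, a stress-response gene, was 3.46-fold higher. All 3 were without overlap. With all 12 arrays 8 rose and 0 fell.

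Of the Bcl2 family, which controls the mitochondrial route to cell death, 6 of 20 rose (30%) and 1 fell, and these included members of opposite function. Bcl2a1, which protects cells, measured 6.47, 6.55 and 7.01 on castrated arrays and 5.59, 5.51 and 5.66 on control arrays (1.09 ± 0.15, adjusted p = 0.002603). Bcl2l11 (Bim), which promotes death, was 1.70-fold higher, a call that ended without control 2 or 3. Bcl2 itself rose by 0.71 and Mcl1 by 0.62, and neither was called with all 12 arrays. Of 38 caspases, death receptors and inhibitors 5 rose and 1 fell (15.8%), and with all 12 arrays 1 rose. Fadd, the adaptor of death receptors, measured 7.65, 7.61 and 7.49 on castrated arrays and 7.03, 6.87 and 6.97 on control arrays (0.63 ± 0.11), and its call held in every alternative. That of Fas, at 0.55 ± 0.14 (adjusted p = 0.0402), ended in 9 of them.

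Among immediate early genes 5 of 27 rose and 1 fell (22.2%, beside 12.9% of all genes). The number that rose ran from 3 to 10 with single arrays left out, and was 10 without castrated 2. Jun measured 9.92, 9.83 and 9.65 on castrated arrays and 8.09, 8.56 and 8.22 on control arrays (1.51 ± 0.15, adjusted p = 0.0004721), and Fosl2 was 3.12-fold higher. Fos measured 6.19, 5.95 and 6.26 on castrated arrays and 6.13, 6.09 and 6.27 on control arrays, which overlap, and was named after its values were seen. Dusp4, a phosphatase of the MAP kinases, was 2.39-fold lower, whereas Dusp6 was 1.73-fold higher, though not with all 12 arrays.

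Collagens, smooth muscle genes and endothelial genes had few called members. Of 25 collagens 1 rose, Col14a1 (4%), and of 22 smooth muscle genes 1 rose, Mylk (4.55%), beside 7.64% of all genes. Of 40 other matrix proteins 5 rose (12.5%, beside 7.64% of all genes). The count of risen matrix proteins was 2 with all 12 arrays, 0 to 6 with single arrays left out and 16 with array quality weights. The call of Mylk ended with all 12 arrays and without control 2, and that of Col14a1 without castrated 1 or 3 and without control 2 or 3. Smooth muscle markers summed to 12.00 to 12.79 on castrated arrays and 12.70 to 12.94 on control arrays, and 0 of 6 passed the test. Acta2 measured 11.73, 11.07 and 11.70 on castrated arrays and 11.84, 11.66 and 11.70 on control arrays, with castrated 2 the lowest. Skeletal muscle markers summed to 8.68 to 8.94 on castrated arrays and 9.25 to 9.49 on control arrays, and 1 of 4, Acta1, fell. That sum rests mostly on Acta1, which averaged 8.13 on castrated and 9.04 on control arrays. Myh4, Ckm and Tnnt3 differed the other way, by 0.53, 0.28 and 0.11, and did not pass the test. Fibroblast markers, 0 of 6 called, summed to 12.05 to 12.32 on castrated arrays and 11.81 to 12.05 on control arrays. Of 33 endothelial genes and growth factors of vessels 2 fell (6.06%, beside 5.27% of all genes), with all 12 arrays as well. They were Vegfa (1.69-fold lower) and Vegfb (1.76-fold lower), both of them growth factors. Vegfa measured 7.32, 7.16 and 7.56 on castrated arrays and 8.24, 8.11 and 7.95 on control arrays. Endothelial markers summed to 8.51 to 8.72 on castrated arrays and 8.25 to 8.55 on control arrays, and 0 of 4 passed the test. Families with no known role in the prostate were called rarely. Of 162 vomeronasal and taste receptors 2 were called (1.23%), and of 76 neurotransmitter receptors of the amino acid class 1 (1.32%). Of 1105 olfactory receptors 14 were called (1.27%, 5 up and 9 down). The olfactory list among the 97 held only the 53 genes with older symbols, 1 of which fell. Median control levels of these lists were low, at 2.53, 4.40 and 3.08. In the lowest level bin 2.26% of all genes changed, so these low shares are not read as a result about role. In all, 42 of the 97 lists had a smaller share of called members than all genes.

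Among single genes, the 20 largest rises and falls held several outside these families. Lrrc34, a leucine-rich repeat protein, measured 6.90, 6.94 and 6.56 on castrated arrays and 3.63, 3.74 and 3.53 on control arrays (3.17 ± 0.13, adjusted p = 1.603e-05). Blnk, an adaptor of B cell receptor signalling, measured 8.98, 8.26 and 8.61 on castrated arrays and 5.82, 5.49 and 5.69 on control arrays (2.95 ± 0.18), while of the 2 measured B cell markers neither passed the test, Ms4a1 at -0.30 and Cd79b at -0.06. Bace2, a membrane protease, was 5.44-fold higher, Mmp15, a membrane-bound metalloprotease, 5.97-fold higher, and Apod, a lipocalin, 4.71-fold higher. Gnat2, the transducin subunit of cone photoreceptors, measured 8.77, 9.10 and 7.80 on castrated arrays and 4.88, 4.49 and 5.14 on control arrays. Among the falls, Lyzl6, a lysozyme-like gene, measured 5.11, 5.13 and 5.09 on castrated arrays and 7.85, 7.93 and 7.59 on control arrays (-2.68 ± 0.12). Cntn6, a contactin, was 8.84-fold lower, Sorcs2, a sorting receptor, 6.15-fold lower, and Papss2, which makes the sulphate donor, 5.01-fold lower. Lao1, an L-amino acid oxidase, measured 10.29, 7.74 and 8.95 on castrated arrays and 11.74, 12.50 and 12.19 on control arrays (-3.16 ± 0.53). These groups were separate throughout, although the castrated arrays of Lao1 spread widely, with castrated 2 the lowest.

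Castrated rats were also compared directly with rats that were castrated and also injected with 17β-estradiol (25 mg/kg), to see which of the changes differed when estradiol was added. By limma 1 gene of 14506 passed (0.00689%), and 697 (4.8%) had an unadjusted p under 0.05. It was Gpx3, the plasma glutathione peroxidase, at 9.26, 9.32 and 9.63 on castrated arrays and 11.87, 11.60 and 11.19 on castrated plus estradiol arrays (-2.15 ± 0.18, adjusted p = 0.0218). Control arrays measured 9.64, 8.87 and 8.73, which overlap with the castrated ones. The call ended with all 12 arrays, with the replicate block, and without castrated 1 or 2 or castrated plus estradiol 1 or 2. Of the 1872 genes that castration changed, 0 passed in this comparison and 180 had an unadjusted p under 0.05. A p that misses the threshold does not show that the groups are alike, and the median standard error of a difference was 0.13 in this comparison too.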

How the data were processed

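Whole-tissue RNA of the ventral prostate was hybridised to 12 Affymetrix arrays in 4 groups, and whether an array holds 1 animal or a pool is not stated. The authors deposited 1 value per probe set, processed with Affymetrix Expression Console per the submitters' processing notes. No version, normalization or log base is stated in the sources used. The deposited values, 0.797 to 13.4 with nearly equal array medians, were taken as log2. Of 29214 probe sets, 15310 carried 1 gene symbol, 323 several and 13581 none. For 527 genes with several probe sets the one with the highest mean over 12 arrays was used, and 4 of 75 such called genes (Fxr1, Hsd17b6, Sema4c and Wdr25) had probe sets that differed in sign.

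The 3 castrated and 3 control arrays were fitted by lmFit and eBayes of limma (version 3.58.1, under R 4.3.3; 2-sided test, Benjamini-Hochberg over 14506 genes, threshold 0.05). Residual and prior degrees of freedom were 4 and 4.62. The number of arrays limits the precision: the median standard error was 0.13. Tested on simulated data, it called 30% of genes set to change 1.5-fold, 70% at 2-fold, 98% at 4-fold and 100% at 8-fold, and 0.0419% of those left alone. There 50 genes were changed at each fold, far fewer than the 1872 called here. The cutoff of the adjusted p depends on that number, so these shares need not hold for the real arrays. Named genes were those called without overlap between groups: the 20 largest in each direction (placeholder symbols, microRNAs and olfactory receptors left out), up to 5 per list and direction, the smallest p where a list had none, and a panel of 32 genes, 26 of them measured. Members and lists were chosen with earlier results of these data known. Marker genes and promoter matches are named besides. Replicate numbers did not pair the samples: same-numbered castrated and control arrays correlated at -0.111, 0.051 and -0.0935. Castrated rats were also compared with castrated, estradiol-treated rats by the same test.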

Additional observations from a re-analysis of the deposited data

Results flagged for a closer look

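Probe sets with no gene symbol were outside the comparison, and when all probe sets were fitted together 655 of 13581 of them changed (4.82%), 308 up and 347 down. In the same fit 9.23% of the 15310 probe sets with 1 symbol changed, and 15 of the 323 with several (4.64%). The largest rise was probe set 10729762, at 8.94, 7.75 and 8.65 on castrated arrays and 3.38, 3.38 and 3.78 on control arrays (4.94 ± 0.29). Probe set 10748074 measured 5.02, 5.35 and 5.20 on castrated arrays and 9.51, 9.75 and 9.73 on control arrays (-4.47 ± 0.13). Both pairs of groups were far apart, and the genes behind these probe sets are not named here.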

How the results depend on the processing

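Across 16 alternatives, 219 of the 455 named called genes stayed called in every one, and 0 changed direction. The fits with other groups' arrays, eBayes options, the replicate block or without dim genes keep each difference. Only the other alternatives could change a direction. The count of 1872 changed to 803 with all 12 arrays, and to 2408 when estradiol arrays 1 and 2 were left out of that fit. It was 3461 with array quality weights, and ran from 831 to 2604 with single arrays left out. The causes were not tested. The count of at least 2-fold changes ran from 385 to 483 with single arrays left out. With the replicate number as a block 1516 genes were called, 1448 of them among the 1872, although the numbers share only a name. Single calls ended most often with all 12 arrays (192 of 455) and without control 2 (182) or control 3 (161), and in 33 cases with centred medians and 23 with quantile normalization. When estradiol arrays 1 and 2 were left out of the 12, 5 of the 455 calls ended. For castrated against castrated plus estradiol rats the count of 1 became 0 with all 12 arrays and with the replicate block, and was 0 or 1 with single arrays left out. Of the 15 named genes that were not called, 4 changed sign: Igf1 to 0.0621 with weights, Mmp2 to 0.0628 with weights and Myh11 to -0.009362 with centred medians. With single arrays left out the difference of Igf1 ran from -0.4761 to 0.0100, that of Mmp2 from -0.1649 to 0.0267, that of Myh11 from -0.0148 to 0.1626 and that of Pgr from -0.3060 to 0.005633. The 3 arrays per group and 1 outlying castrated array limit small differences, and genes of low level were seldom called.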

Other observations

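Some families not described above changed in a few members. Of 25 matrix metalloproteases and inhibitors 4 rose and 1 fell (20%, beside 12.9% of all genes). Mmp12 and Mmp15 were 9.39-fold and 5.97-fold higher in castrated rats, and Timp4, an inhibitor, fell by 1.54. Of 24 annexins and S100 proteins 4 rose and 2 fell (25%). S100a10, which pairs with annexin A2, measured 9.61, 9.60 and 9.61 on castrated arrays and 10.85, 10.76 and 10.54 on control arrays, while Anxa2 rose by 1.71. These partners changed in opposite directions.

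Of 20 enzymes of steroid conversion 2 rose and 2 fell (20%), and of 18 circadian clock genes 2 rose and 2 fell (22.2%). Of 83 potassium channels 3 rose and 3 fell (7.23%, beside 12.9% of all genes), with Kcnd2 higher by 1.44 and Kcnh2 lower by 1.24. Among the 14 olfactory receptors that were called, of 1105, 3 were named after their values were seen: Or4c105 differed by -3.08 ± 0.32, Or4c11 by -2.65 ± 0.46 and Or2h1b by 2.02 ± 0.17.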
